A study of Mus musculus with 16 samples.

Results

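The cells described here are the Foxa2+, T-, CD24 low cells of an endoderm differentiation of mouse embryonic stem cells (mESCs), called definitive endoderm progenitors (DEP) in the study, on day 4 and on day 2. They were chosen by their sort gate and day alone, and are 4 of the 16 arrays of the series, with 2 biological replicates on each day. All 18716 genes with a probe set of their own among the probe sets kept were tested on these arrays, each gene read from its brightest probe set. The cells came from a T GFP/+; Foxa2 tagRFP/+ reporter line, labelled E14.1 (129/Ola), in which every group carries both reporters on 1 allele each. DEP on day 4 and DEP on day 2 were grown on feeders that express Wnt3a, in a defined endoderm medium with 12 ng/ml activin A, a ligand of the Nodal receptors, and were sorted for Foxa2, against T and for low CD24. Foxa2+, T-, CD24 high cells of the same cultures on days 4 and 2 are the definitive endoderm (DE). The mesoderm cultures received Bmp4 at 7.5 ng/ml and less activin A, 3 ng/ml. Their Foxa2-, T+, CD24 low cells are the mesoderm progenitors (MP) of days 4 and 2, and their Foxa2-, T+, CD24 negative cells the day 4 mesoderm (MES). The reference is the undifferentiated mESCs (ES), which were not sorted and were kept on embryonic fibroblast feeders with leukaemia inhibitory factor. Each group holds 2 arrays, all groups derive from the same reporter line, and the gate reads reporter and surface protein rather than RNA. GEO's labels give the stage of the DEP as definitive endoderm on both days.

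In the gastrulating mouse embryo, epiblast cells at the primitive streak receive Wnt and Nodal signals and turn on T on the way to mesoderm or Foxa2 on the way to endoderm. Foxa2 and Foxa1 are forkhead factors that open chromatin at endoderm genes, and Sox17 is a transcription factor that the study uses as a marker of definitive endoderm. The first endoderm to leave the streak comes to lie at the anterior, where it secretes antagonists of Wnt, Nodal and Bmp that protect the head from posteriorizing signals. The comparison of day 4 with day 2 asks how the RNA of cells inside the same gate differed with time in culture.

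RMA values, the background-corrected and quantile-normalized log2 signals of each probe set, had array medians between 7.42 and 7.49. Replicates correlated at 0.994 on day 4 and 0.994 on day 2, and arrays of different days at 0.991 to 0.994. Between days the correlation was 0.983 to 0.989 in DE and 0.986 to 0.987 in MP. The ES arrays stood apart by feeder genes: the mean of 22 fibroblast genes lay at 9.91 to 10.26 there, against 7.28 to 7.33 in DEP on day 4 and 7.46 to 7.51 in DEP on day 2. The 2 DE arrays of day 2 differed from each other in several genes named below. The definitive endoderm list of 20 genes averaged 9.88 to 9.96 in DEP on day 4 and 9.48 to 9.55 in DEP on day 2, above the 8.29 to 8.30 of ES and below the 11.40 to 11.70 of the 4 DE arrays. Cd24a, the gene of the sorted surface protein, had 12.87 and 13.02 on day 4 and 12.67 and 12.55 on day 2, with a log2 difference of 0.34 ± 0.12 (standard error, adjusted p = 0.457), and lay at 13.40 and 13.23 as means of DE on days 4 and 2. T has no probe set of its own in the annotation used and was not analysed here.

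A gene was called where its absolute log2 difference was above 1 and its adjusted p, from limma with Benjamini-Hochberg adjustment, below 0.05. By this rule 69 genes were higher on day 4, which is 0.369% of the 18716 tested, and 14 were lower, which is 0.0748%. The median log2 difference of all genes was 0.01. All 83 called genes had both arrays of a day above both of the other, as had 23.1% of all genes upward and 20.8% downward. With 1 array left out in turn, 56 genes were called without day 4 replicate 1, 36 without day 4 replicate 2, 60 without day 2 replicate 1 and 46 without day 2 replicate 2. Of the genes called on all arrays, 28 of the 69 and 3 of the 14 stayed called in all 4 of these fits. Fewer cells of a type and less RNA per cell cannot be told apart in bulk arrays.

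**Figure D1:**
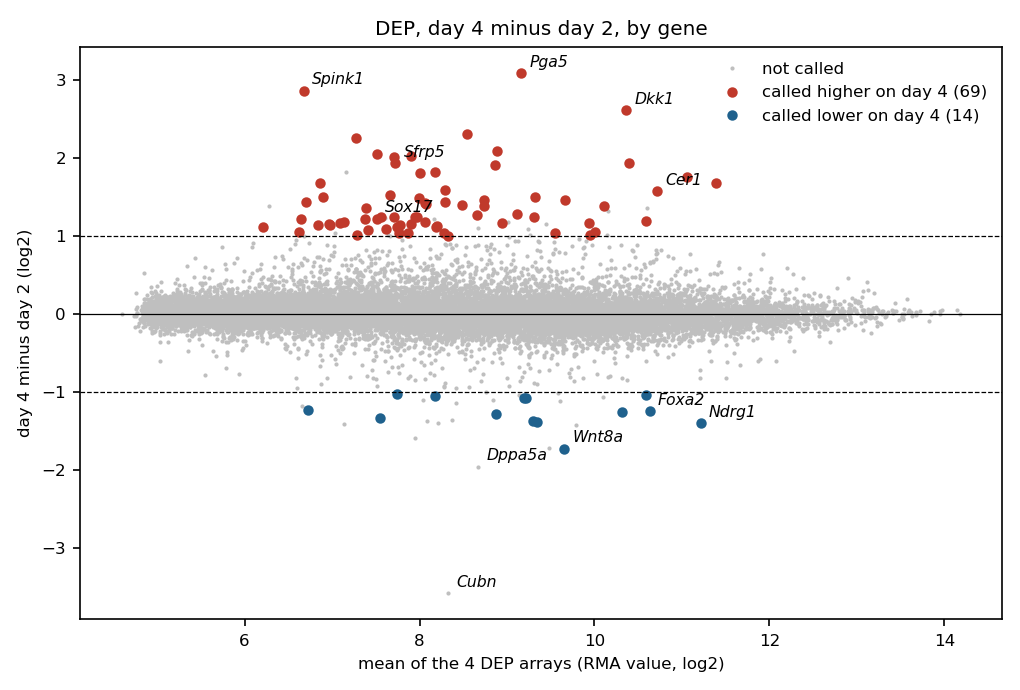
Log2 difference of day 4 minus day 2 in DEP (y axis) against the mean RMA value of the 4 DEP arrays (x axis, log2), 1 point a gene, with the dashed lines at a difference of 1 and -1. The 69 genes called higher reach 3.09 (Pga5), the 14 called lower reach -1.73 (Wnt8a), and Cubn at -3.58 was not called.

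Pga5, which encodes the gastric protease precursor pepsinogen, had 10.44 and 10.97 on day 4 and 7.90 and 7.33 on day 2. Its day 4 arrays lay 3.09 ± 0.19 above those of day 2 (adjusted p = 4.34e-05), an 8.51-fold difference and the highest of all genes. Spink1, a secreted inhibitor of trypsin, had 7.85 and 8.37 on day 4 against 5.23 and 5.25 on day 2, a difference of 2.86 ± 0.38 (adjusted p = 0.00552). Day 4 DE was brighter in both, with means of 13.35 for Pga5 and 11.86 for Spink1, and DE on day 2 had 8.34 and 9.99 for Spink1, the lower of which was below a day 4 DEP array. Spink1 was not called without day 4 replicate 2 (2.60) or without day 2 replicate 2 (2.87). F5, which encodes coagulation factor V, had 8.45 and 8.40 on day 4 and 7.02 and 6.77 on day 2 (1.53 ± 0.14, adjusted p = 5.85e-04).

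Aff2, a member of the AF4/FMR2 family of transcription elongation factors, had 9.50 and 9.89 on day 4 against 7.39 and 7.40 on day 2 (2.30). Irs4, an insulin receptor substrate, had 10.01 and 9.86 against 8.12 and 7.57 (2.09). Tph1, the first enzyme of serotonin synthesis, had 8.89 and 8.93 against 7.17 and 6.60 (2.02). In all 3 genes both day 4 arrays lay above both day 2 arrays, and all 3 were called in the 4 leave-one-out fits. Cbln1, a secreted protein of the cerebellin family, differed by 1.82, Cd59a, a complement inhibitor of the cell surface, by 1.75, and Gramd1b, a sterol carrier between plasma membrane and endoplasmic reticulum, by 1.92. Pilra, a paired immunoglobulin-like receptor, rose by 2.26, and its relatives Pilrb2 and Pilrb1, named after their values were seen, by 1.22 and 1.15. Signals of such close relatives, as of Cd59a and Cd59b (1.22), may cross between probe sets, so these genes are uncertain as separate risers. Gramd1b lost its call in each of the 4 leave-one-out fits although its difference stayed between 1.83 and 2.00.

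Of 14 measured genes on a list of Wnt inhibitors, 5 were higher on day 4 (Dkk1, Sfrp5, Sfrp1, Cer1 and Frzb). None was lower and 9 did not pass the test. The median difference of the list was 0.14, against 0.01 over all genes. Dkk1, which binds the Wnt co-receptors Lrp5 and Lrp6, had 11.59 and 11.75 on day 4 against 9.24 and 8.86 on day 2. This difference of 2.62 ± 0.17, or 6.14-fold, was called on any 3 of the 4 DEP arrays as well (adjusted p = 6.23e-05 on all). The day 4 arrays of Dkk1 lay below the means of DE (13.29 on day 4 and 12.97 on day 2) and above every array of MP, MES and ES.

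The secreted frizzled-related proteins bind Wnt ligands directly. Sfrp5 had 8.50 and 8.88 on day 4 and 6.66 and 6.86 on day 2 (1.93 ± 0.23, adjusted p = 0.00279), with the day 2 level in the range of ES (mean 6.81). Sfrp1 had 12.21 and 12.26 on day 4 and 10.88 and 10.22 on day 2 (1.68 ± 0.20, adjusted p = 0.00279). Frzb had 7.98 and 8.15 on day 4 and 6.70 and 6.73 on day 2 (1.35 ± 0.17, adjusted p = 0.00328), and was not called without day 4 replicate 2 (1.27). Cer1, an antagonist of Nodal and Bmp whose Xenopus counterpart also binds Wnt, had 11.45 and 11.55 on day 4 against 10.12 and 9.73 on day 2. Its difference of 1.57 ± 0.28 (adjusted p = 0.0289) ran from 1.37 to 1.77 with an array left out and passed the test in none of those 4 fits. Members that did not pass included Shisa2 (0.39), Dkk3 (0.14), Sfrp2 (0.12) and Wif1 (-0.06).

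**Figure D2:**
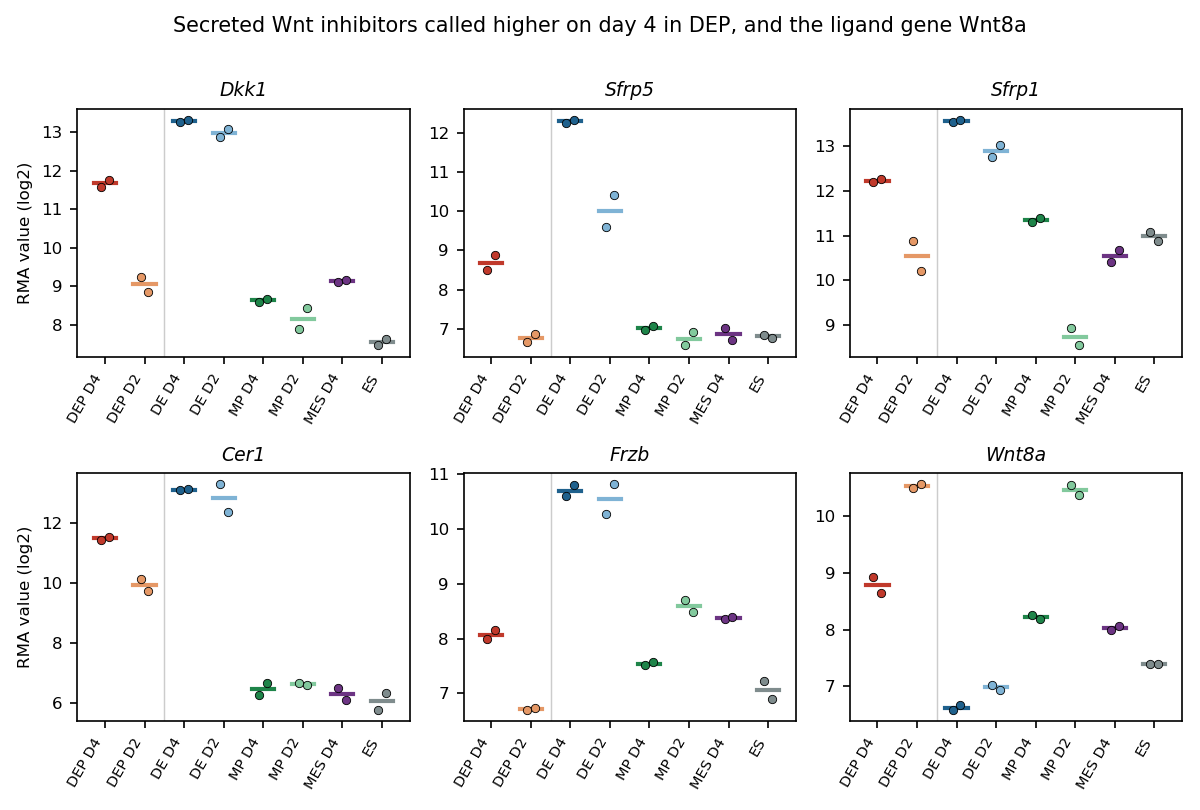
RMA values (y axis, log2) of each array in the 8 groups (x axis; DEP, DE and MP on day 4 and day 2, MES on day 4, and ES) for 5 secreted Wnt inhibitors and Wnt8a; points are the 2 replicates and bars their mean. Day 4 DEP lies above day 2 DEP for the inhibitors and below it for Wnt8a, and for Dkk1, Sfrp5, Sfrp1, Cer1 and Frzb every DE array is higher still.

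Among the Wnt ligand genes 1 fell. Of 13 measured, none was higher and 1 was lower, with a median of 0.00. Wnt8a, a ligand expressed in the primitive streak, had 8.93 and 8.65 on day 4 and 10.48 and 10.55 on day 2. It was the lowest called gene (-1.73 ± 0.10, adjusted p = 4.34e-05) and was called in all 4 leave-one-out fits. Wnt3 had 8.74 and 8.53 on day 4 and 9.16 and 9.36 on day 2 (-0.62, adjusted p = 0.0956), and Wnt11 differed by -0.62, neither past the rule. Among 25 receptors, Tcf factors and canonical targets 1 was higher and none lower, with a median of -0.04. The riser was the receptor Fzd5, with 10.24 and 9.90 on day 4 and 9.08 and 9.00 on day 2 (1.03), which passed in none of the leave-one-out fits (0.86 to 1.21). Axin2, a feedback target of the pathway, differed by -0.62 (adjusted p = 0.117), Lef1 by 0.10, Apc by -0.08 and the stem cell receptor Lgr5 by 0.88 (adjusted p = 0.0121, below the fold limit).

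Sox17 and Cxcr4 were among the definitive endoderm genes that rose, and Foxa2 among those that fell. Of 20 measured genes on the list, 6 rose (Cer1, Cxcr4, Foxa1, Prdm1, Sox17 and Lhx1), 2 fell (Mixl1 and Foxa2) and 12 did not pass; the list median was 0.52, against 0.01 over all genes. Of all 83 called genes 83.1% were higher, so the split of 6 to 2 is not particular to the list. Sox17 had 7.96 and 8.28 on day 4 against 6.99 and 6.81 on day 2 (1.22 ± 0.19, adjusted p = 0.0167), while DE stood at 10.88 on day 4 and 10.75 on day 2. It was not called without day 4 replicate 2 (1.06), day 2 replicate 1 (1.31) or day 2 replicate 2 (1.13). Foxa1 had 9.90 and 9.61 on day 4 against 8.49 and 8.47 on day 2 (1.28 ± 0.22, adjusted p = 0.0290), and passed in none of the 4 leave-one-out fits (1.13 to 1.43). Cxcr4, the chemokine receptor widely used to sort definitive endoderm, had 8.59 and 8.97 on day 4 and 7.42 and 7.29 on day 2 (1.42 ± 0.16, adjusted p = 0.00249), and stayed called in all 4. Lhx1, a LIM homeobox factor of anterior mesendoderm, had 10.51 and 10.53 against 9.38 and 9.33 (1.17 ± 0.15, adjusted p = 0.00528), and was lost without either replicate 2 (1.16 and 1.15). Prdm1, a zinc finger repressor also known as Blimp1, had 8.09 and 8.28 on day 4 and 6.90 and 6.97 on day 2 (1.24 ± 0.16, adjusted p = 0.00400), and was lost without day 4 replicate 2 (1.15).

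Gata4 and Gata6, zinc finger factors of the endoderm, lay just inside the fold limit with 0.99 (adjusted p = 0.00527) and 0.88 (adjusted p = 0.00400) and so were not called. Hhex, a homeobox gene of the anterior endoderm, lay 0.52 higher on day 4 and was not called (adjusted p = 0.114). Foxa2 itself, the reporter gene of the gate, had 10.02 and 10.00 on day 4 against 11.09 and 11.41 on day 2. Its difference of -1.24 ± 0.21 (adjusted p = 0.0228) brought day 4 DEP below the means of DE (10.37 on day 4 and 10.94 on day 2), although cells of both days had passed the Foxa2 gate. Mixl1, a homeobox gene of the primitive streak, had 10.21 and 9.94 against 11.10 and 11.14 (-1.04 ± 0.17, adjusted p = 0.0174). Neither Foxa2 (-1.08 to -1.40) nor Mixl1 (-0.91 to -1.18) passed in a leave-one-out fit. Of the 14 primitive streak genes, which share Lhx1 and Mixl1 with these counts, 1 was higher, 1 lower and 10 had a negative difference (median -0.27), among them Fgf8 (-0.84, adjusted p = 0.0175) and Eomes (-0.72, adjusted p = 0.0594).

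**Figure D3:**
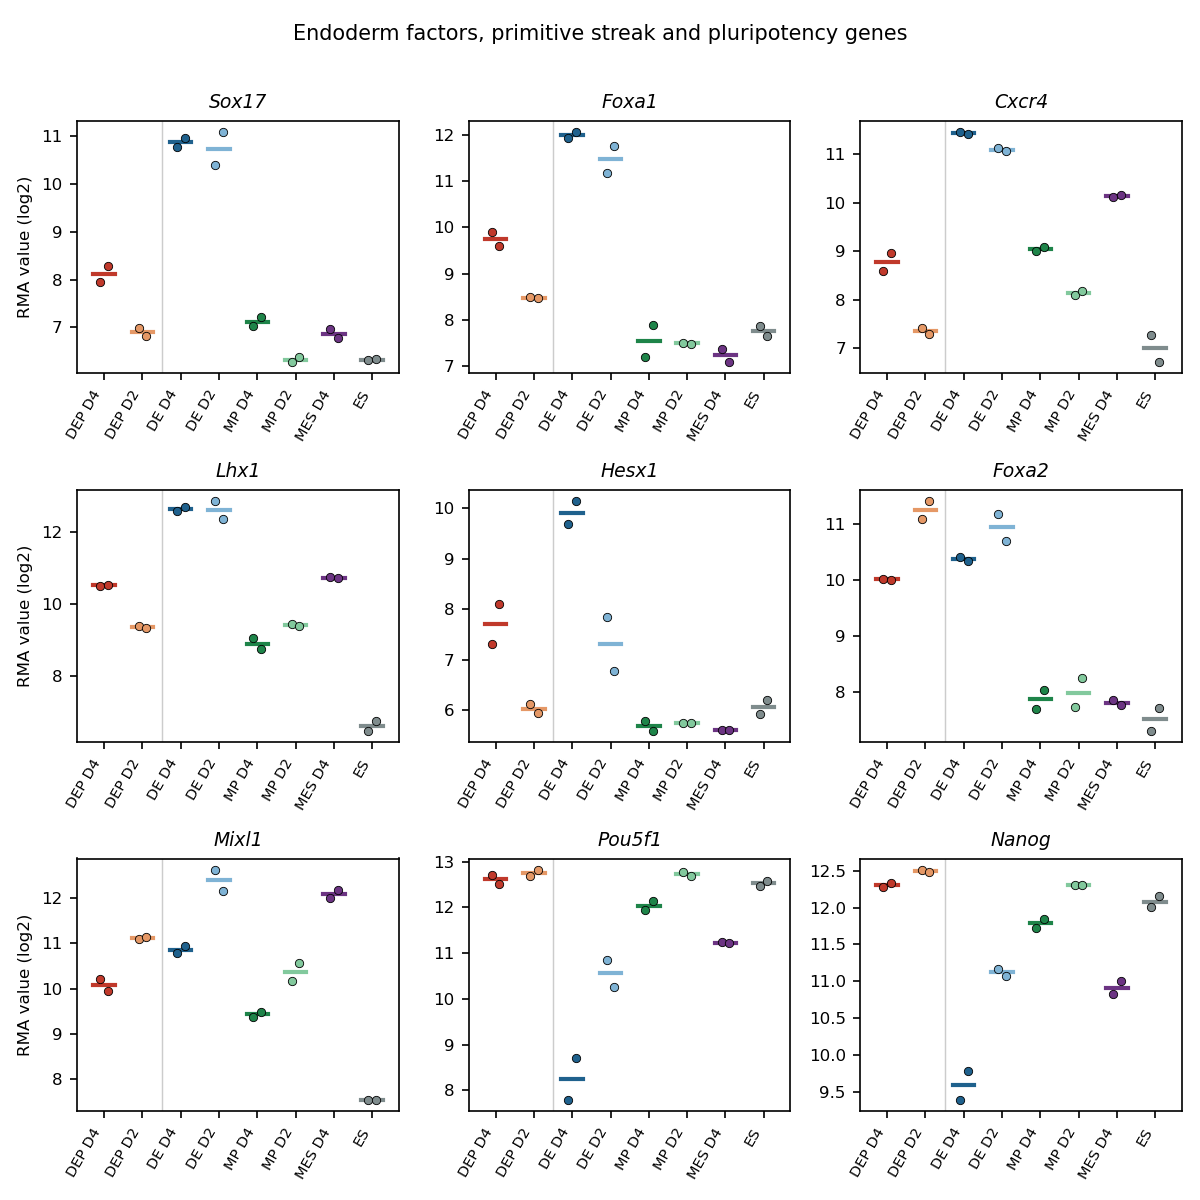
RMA values (y axis, log2) by array in the 8 groups (x axis, day 4 left of day 2) for 5 endoderm genes that rose in DEP, Foxa2 and Mixl1, which fell, and Pou5f1 and Nanog, which were not called; points are replicates and bars their mean. Day 4 DEP has Sox17 at 7.96 and 8.28, under every DE array, while Pou5f1 stays above 12 in DEP of both days.

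Upstream sequences of genes that moved together were searched for 6 short motifs on both strands, in windows from 250 bases before to 50 after the start of a gene (RefSeq, GRCm38.p6). A window was found for 57 of the 69 higher genes, 9 of the 14 lower genes and 14680 of all genes tested. The forkhead motif TGTTTAC occurred in 4 of the 57 (7.02%) and in 0 of the 9, against 3.34% of all. Those 4 windows are shown because Foxa2, a forkhead gene, is a reporter gene of the gate. Windows with the other motifs are not shown. Capitals mark the motif or its reverse complement.
Foxa1: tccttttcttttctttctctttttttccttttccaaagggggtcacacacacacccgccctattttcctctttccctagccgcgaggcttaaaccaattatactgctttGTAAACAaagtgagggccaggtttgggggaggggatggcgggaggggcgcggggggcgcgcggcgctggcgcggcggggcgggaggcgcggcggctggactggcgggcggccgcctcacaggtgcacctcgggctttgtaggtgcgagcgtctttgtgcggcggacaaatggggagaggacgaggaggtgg
Fgf10: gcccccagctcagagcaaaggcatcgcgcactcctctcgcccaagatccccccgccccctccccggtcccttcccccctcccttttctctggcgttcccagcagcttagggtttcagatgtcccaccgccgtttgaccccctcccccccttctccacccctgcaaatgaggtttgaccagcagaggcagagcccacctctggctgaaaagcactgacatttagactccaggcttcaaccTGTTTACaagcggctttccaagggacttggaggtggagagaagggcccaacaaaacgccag
Prdm1: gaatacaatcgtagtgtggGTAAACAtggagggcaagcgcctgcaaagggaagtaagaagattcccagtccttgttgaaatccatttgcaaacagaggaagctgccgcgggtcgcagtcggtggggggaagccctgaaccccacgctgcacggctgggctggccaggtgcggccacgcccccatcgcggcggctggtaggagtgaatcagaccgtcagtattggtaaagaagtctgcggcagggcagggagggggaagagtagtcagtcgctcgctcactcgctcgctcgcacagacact
Myb: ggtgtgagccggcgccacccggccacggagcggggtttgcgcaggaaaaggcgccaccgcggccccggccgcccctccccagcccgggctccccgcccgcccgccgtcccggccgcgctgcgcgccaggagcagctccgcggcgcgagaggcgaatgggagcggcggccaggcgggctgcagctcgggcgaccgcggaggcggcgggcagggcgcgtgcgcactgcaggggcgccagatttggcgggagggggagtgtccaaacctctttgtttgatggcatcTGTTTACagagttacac
They lie at chr12:57546062-57546361 (minus strand, Foxa1), chr13:118714449-118714748 (plus, Fgf10), chr10:44458699-44458998 (minus, Prdm1) and chr10:21160935-21161234 (minus, Myb). Myb, a haematopoietic transcription factor gene named for this match, differed by 1.39, a call lost without day 4 replicate 2 (1.28), and Fgf10 by 1.44. The Tcf/Lef motif CTTTGAT was in 3.51% of higher genes, 11.1% of lower genes (1 of 9) and 3.49% of all, the Gata motif AGATAA in 8.77%, 11.1% and 9.90%, the T-box motif GGTGTGA in 3.51%, 11.1% and 4.43%, the octamer ATGCAAAT in 3.51%, 0% and 1.80%, and the hypoxia motif GACGTG in 7.02%, 0% and 8.95%. A match is a description of the window only.

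Anterior and foregut genes shared the Wnt inhibitors. Of 19 measured, 5 were higher (Dkk1, Sfrp5, Hesx1, Cer1 and Frzb), none lower and 14 not called, with a median of 0.15. Hesx1, a homeobox gene of the anterior endoderm and forebrain, had 7.31 and 8.10 on day 4 against 6.12 and 5.94 on day 2 (1.67 ± 0.31, adjusted p = 0.0396), the most uneven replicates among the named risers. It was lost without day 4 replicate 2 (1.28), day 2 replicate 1 (1.77) or day 2 replicate 2 (1.58). Later foregut genes showed no such differences, with Nkx2-1 at 0.15, Pax9 at 0.09, Six3 at 0.18 and Prox1 at -0.33. Among the 11 posterior and hindgut genes none was called in either direction, and Cdx2 differed by 0.12 and Sox9 by 0.45. Hox, Cdx and Meis genes likewise had 0 of 19 called, from -0.12 to 0.25.

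Visceral and primitive endoderm, the extraembryonic lineage that shares many genes with definitive endoderm, had 2 of 21 genes higher (Spink1 and Apob), none lower and a median of 0.09. Apob, the protein of lipoprotein particles, had 7.42 and 7.68 on day 4 and 6.59 and 6.24 on day 2 (1.13, adjusted p = 0.0430), and passed in none of the leave-one-out fits (0.96 to 1.31). Afp differed by 0.02 and Ttr by 0.34, neither of them called. Cubn, an endocytic receptor of visceral endoderm, had 6.45 and 6.63 on day 4 against 10.46 and 9.77 on day 2. This was the largest difference of any gene (-3.58 ± 0.79) and was not called (adjusted p = 0.0901). Dab2, an adaptor of the same endocytic route, had 8.45 and 8.80 on day 4 and 10.51 and 10.18 on day 2 (-1.72, adjusted p = 0.459). The 2 arrays of DE on day 2, which enter the spread of the fit, differed in both genes: Cubn had 6.09 in replicate 1 and 9.71 in replicate 2, and Dab2 7.34 and 10.11.

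With either of those DE arrays left out, 100 genes were called in DEP, 75 higher and 25 lower, and all 83 were among them. The 17 added were 6 higher and 11 lower. Cubn then had an adjusted p of 6.49e-05, Dab2 of 0.00966, Dppa5a, a small protein of pluripotent cells, of 0.00418, and Lama1, the alpha chain of the early basement membrane laminin, of 0.00205; these genes were chosen after their values were seen. Leaving out 1 or the other of those DE arrays is the same fit for DEP, not 2 separate checks. A group of 1 array adds no spread, so the uneven DE pair of day 2 drops out of the error estimate. The differences in DEP stay the same, with Cubn at -3.58. Dppa5a had 7.75 and 7.63 on day 4 and 9.83 and 9.46 on day 2 (-1.96), and Lama1 7.19 and 7.10 against 8.95 and 8.53 (-1.60). In each of these 4 genes both DEP arrays of day 2 lay above both of day 4, as in 20.8% of all genes. Since the 4 genes were chosen after their values were seen, this separation is a description only. ES was also high in 3 of them, with means of 13.64 for Dppa5a, 9.92 for Dab2 and 8.81 for Lama1. For Cubn the ES mean was 6.55. The mean of the 21 visceral endoderm genes overlapped between the days, 7.62 to 7.72 on day 4 and 7.60 to 7.72 on day 2. The differences of its members ran from -3.58 (Cubn) to 2.86 (Spink1), so opposite differences can cancel in this mean. The part of cells of that type in the differences of the 4 genes above was not tested.

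Of 25 measured Eph, ephrin, semaphorin and chemokine genes, 4 were higher (Nrp1, Cxcr4, Sema6d and Robo1), none lower, with a median of 0.01. Nrp1, a co-receptor of class 3 semaphorins and Vegf, had 8.61 and 8.48 on day 4 and 6.62 and 6.35 on day 2 (2.06 ± 0.26, adjusted p = 0.00407), and was lost without day 2 replicate 2 (1.92). Sema6d, a transmembrane semaphorin, had 9.17 and 9.41 against 8.08 and 7.96 (1.27 ± 0.12, adjusted p = 0.00101). Robo1, a receptor of Slit proteins, had 8.71 and 8.90 against 7.73 and 7.79 (1.04), and was lost without day 4 replicate 2 (0.94). Not called were Epha4 (1.04, adjusted p = 0.139), Ackr3 (0.39), Cxcl12 (-0.48) and Epha1 (-0.82). Fgf10, a ligand of Fgfr2b in foregut buds, had 8.94 and 9.08 on day 4 against 7.58 and 7.56 on day 2 (1.44 ± 0.17, adjusted p = 0.00279), the 1 gene called of 21 on the Fgf list.

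In the Nodal and activin pathway 1 of 20 genes was called. Cfc1, a co-receptor of Nodal also known as Cryptic, had 8.38 and 8.57 on day 4 against 7.44 and 7.20 on day 2 (1.15 ± 0.19, adjusted p = 0.0230), and passed in none of the leave-one-out fits (1.03 to 1.27). Nodal (-0.33), its co-receptor gene Tdgf1 (-0.20) and the antagonist Lefty1 (-0.04) were not called, nor was Fst, which encodes the activin-binding protein follistatin, with 9.03 and 9.13 on day 4 and 10.20 and 10.81 on day 2 (-1.42, adjusted p = 0.0587). Bmp pathway genes had 0 of 20 called (-0.49 to 0.58) and Notch genes 0 of 16 (-0.36 to 0.84).

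The risers were sorted into classes by their level in DE. The shares of all genes in these classes were not counted, so the numbers only describe the risers. For 35 of the 69 higher genes all 4 DE arrays lay above both day 4 DEP arrays, for 26 all 4 DE arrays lay below them, and for 8 the levels were mixed. In 24 of the 69 both day 4 DEP arrays lay above all 12 arrays outside DEP, as they did in 3.79% of all genes; the genes were chosen by their high level in those arrays, so this count is a description. Timp4, an inhibitor of matrix metalloproteinases, had 11.19 and 11.54 on day 4 against 9.61 and 9.25 on day 2 (1.93 ± 0.16, adjusted p = 3.92e-04), while the group means elsewhere were 6.41 to 7.21. Rgs2, which speeds the shutdown of G protein signalling, had 8.97 and 9.21 against 7.48 and 7.52 (1.59 ± 0.22, adjusted p = 0.00754), and was lost without day 4 replicate 2 (1.47), day 2 replicate 1 (1.57) or day 2 replicate 2 (1.61). Liph, a lipase that forms lysophosphatidic acid, had 8.86 and 8.96 against 7.31 and 6.91 (1.80 ± 0.25, adjusted p = 0.00737), and was lost in 3 of the 4 fits (1.60 without day 2 replicate 2, 1.76 without day 4 replicate 2 and 1.85 without day 4 replicate 1).

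Other genes of that pattern were named after their values were seen. Ikzf1, a lymphoid zinc finger factor known as Ikaros, had 10.58 and 10.47 on day 4 and 9.63 and 9.32 on day 2 (1.05), against group means of 6.87 to 7.08 outside DEP, and was lost without day 4 replicate 1 (0.99), day 4 replicate 2 (1.10) or day 2 replicate 2 (0.89). Chst1, a carbohydrate sulfotransferase, rose by 1.47, the calcitonin receptor gene Calcr by 1.46, the guanine nucleotide exchange factor gene Mcf2 by 1.50 and the adenylyl cyclase gene Adcy8 by 1.24, all called in the 4 leave-one-out fits. Capsl, a calcium-binding protein related to calcyphosine, had 8.77 and 8.67 against 6.90 and 6.50 (2.02 ± 0.16, adjusted p = 1.98e-04) and was as bright in ES (mean 8.72).

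Some of these genes encode parts of motile cilia. A list of axonemal and ciliary genes was drawn up after these values had been seen, so it supports nothing on its own: of 60 measured, 4 were higher (Cfap206, Cfap44, Efcab1 and Dnajb13), none lower, and the median was 0.14. Cfap206 had 8.60 and 8.58 on day 4 against 7.68 and 7.03 on day 2 (1.24 ± 0.17, adjusted p = 0.00782), with means of 5.93 to 6.31 in the other groups. Dnajb13, of the radial spoke, had 8.20 and 8.36 against 7.60 and 6.88 (1.04, adjusted p = 0.0406), and Lrriq1, not on the list, 8.39 and 8.39 against 7.74 and 6.97 (1.04, adjusted p = 0.0368). In these 3 genes the days were separate but day 2 replicate 1 lay closer to day 4 than day 2 replicate 2 did. Each of the 3 was called without day 2 replicate 1 and lost with any other array left out: without day 2 replicate 2 the differences were 0.91 for Cfap206, 0.68 for Dnajb13 and 0.65 for Lrriq1, and without day 4 replicate 1 or 2 they were 1.23 and 1.25, 1.13 and 0.96, and 1.04 and 1.04. Foxj1, the master factor of motile ciliogenesis, had 8.64 and 8.42 on day 4 and 8.56 and 8.63 on day 2 (-0.07, adjusted p = 0.962).

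**Figure D4:**
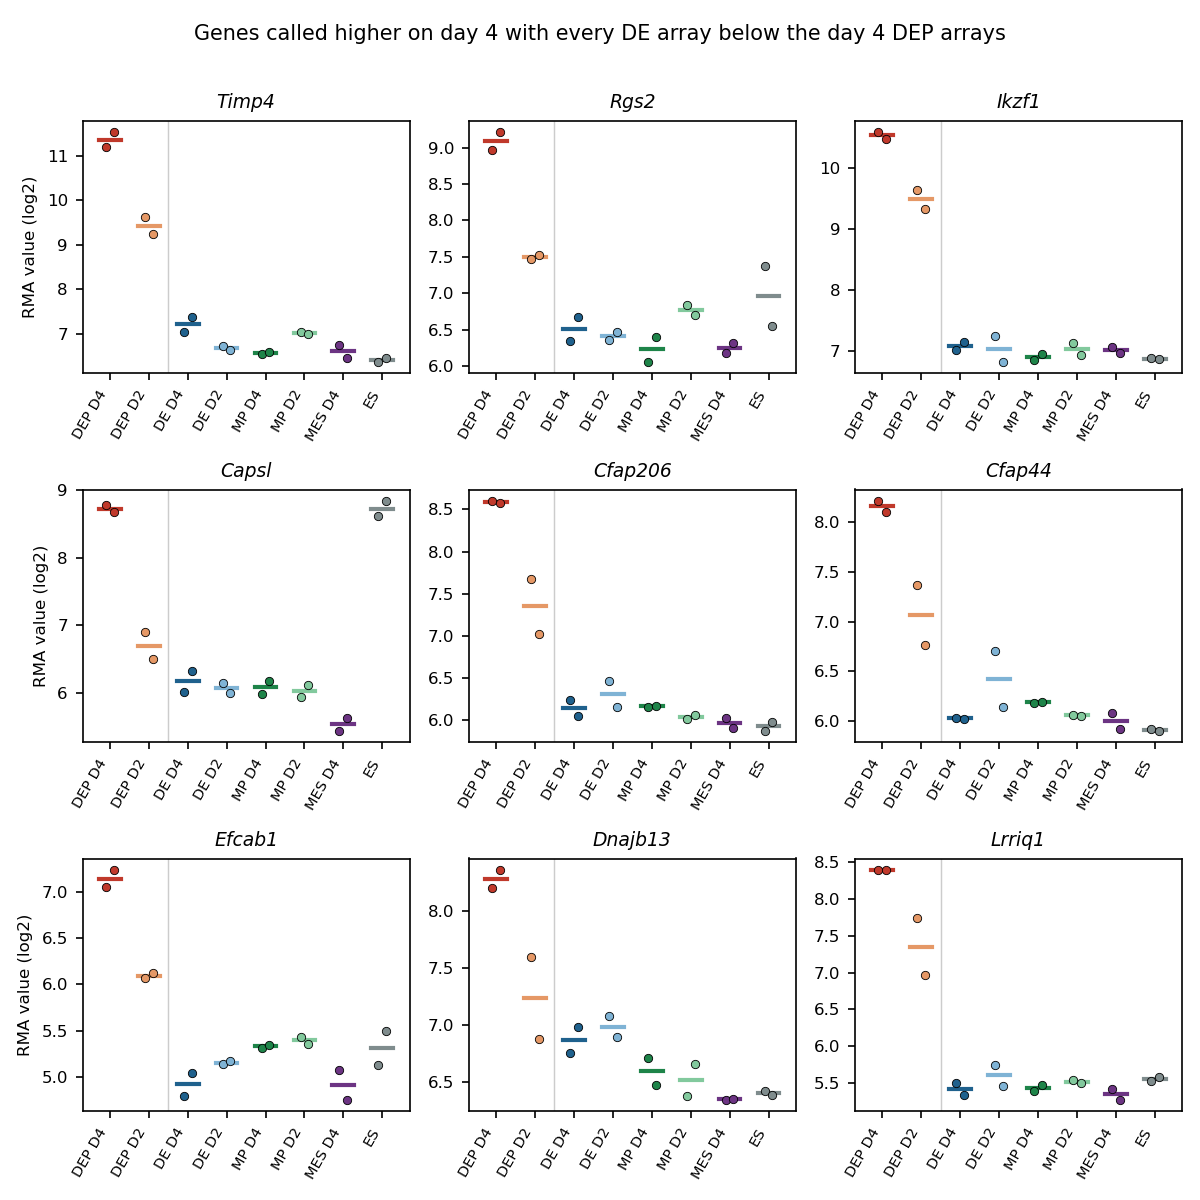
RMA values (y axis, log2) by array in the 8 groups (x axis, day 4 left of day 2) for 9 genes that rose in DEP and were lower in all 4 DE arrays than in day 4 DEP; points are replicates and bars their mean. Apart from Capsl, which is as bright in ES, the day 4 DEP arrays are the highest of all 16.

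The 14 lower genes held no large family. Ndrg1, a gene induced by hypoxia and stress, had 10.52 and 10.51 on day 4 against 11.83 and 11.99 on day 2 (-1.40 ± 0.14, adjusted p = 0.00121), the only one of 25 glycolysis and hypoxia genes that was called. Ada, which deaminates adenosine, had 8.73 and 8.57 against 10.01 and 10.05 (-1.38 ± 0.19, adjusted p = 0.00737). Nt5e, the surface enzyme CD73 that makes adenosine from AMP, had 9.64 and 9.73 against 11.13 and 10.76 (-1.26 ± 0.18, adjusted p = 0.00840). Both calls were lost with 3 of the 4 arrays left out (Ada -1.30 to -1.40, Nt5e -1.08 to -1.30).

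Fbxo15, an F-box gene of pluripotent cells, had 6.94 and 6.81 on day 4 against 8.45 and 7.97 on day 2 (-1.33 ± 0.22, adjusted p = 0.0213), against 9.92 in ES. Tfap2c, a transcription factor of trophoblast and germ cells, had 7.42 and 7.05 against 8.28 and 8.24 (-1.03 ± 0.14, adjusted p = 0.00538). Irf1, a factor of the interferon response, had 8.15 and 8.31 against 9.71 and 9.32 (-1.29), the only gene called of 13 interferon-inducible genes. Apln, the ligand of the apelin receptor, had 8.81 and 8.54 against 9.39 and 10.12 (-1.08). The others were Kcng3 (-1.37), a potassium channel subunit, Tfec (-1.23), a factor of the MiT family, Arhgef26 (-1.08), an exchange factor for RhoG, and Them5 (-1.05), a thioesterase. Of the 14, Wnt8a, Ndrg1 and Arhgef26 stayed called in all 4 leave-one-out fits. The calls of Irf1 (-1.09 to -1.48) and Kcng3 (-1.33 to -1.41) were lost in each of them, Apln kept its call only without day 2 replicate 1 (-1.44), Tfap2c only without day 4 replicate 1 (-1.21), Fbxo15 and Tfec only without day 2 replicate 2 (-1.57 and -1.55), and Them5 lost its call without day 4 replicate 1 (-0.90) or day 2 replicate 2 (-1.06).

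Of 11 measured genes of the core pluripotency network none was called, with a median of -0.13. Pou5f1, the gene of Oct4, had 12.72 and 12.52 on day 4 and 12.69 and 12.82 on day 2 (-0.13, with a 95% interval of -0.68 to 0.41), close to the 12.53 of ES. Nanog had 12.28 and 12.34 against 12.51 and 12.49 (-0.19, interval -0.45 to 0.08), and Sox2 11.13 and 10.93 against 11.11 and 11.04 (-0.05, interval -0.37 to 0.28). The arrays of the days overlapped for Pou5f1 and Sox2. The lowest member was Foxd3, a forkhead factor of pluripotent cells, with 9.21 and 8.95 on day 4 against 10.03 and 10.17 on day 2 (-1.02 ± 0.22), past the fold limit with an adjusted p of 0.0780, and it was called with array weights (adjusted p = 0.0308, against up to 0.567 over the alternatives). Naive pluripotency genes had 1 of 15 called, the lower Fbxo15, with 12 of 15 negative and a list mean of 7.24 to 7.28 on day 4 against 7.55 to 7.68 on day 2 (9.83 to 10.41 in ES). Feeder fibroblast genes, which are also high in ES, had 0 of 22 called and a list mean lower on day 4 as given above, carried by Tagln (-1.37), Cdh11 (-1.36) and Thbs1 (-0.89); the collagen genes Col1a1, Col1a2 and Col3a1 differed by -0.10, 0.02 and 0.09. The part of feeder or undifferentiated cells in the lower genes was not tested.

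Epithelial to mesenchymal transition (EMT), the loss of epithelial junctions under factors such as Snai1, was a question of the study. None of 11 measured EMT factors was called in either direction, with a median of 0.01. Snai1 had 8.26 and 8.47 on day 4 and 8.62 and 8.87 on day 2 (-0.38, interval -0.72 to -0.04, adjusted p = 0.525), Snai2 differed by 0.22, Zeb1 by 0.45, Zeb2 by 0.65 (interval 0.20 to 1.10, adjusted p = 0.340) and Twist1 by 0.01. Among 28 adhesion genes none was called. Cdh1, the gene of E-cadherin, had 12.66 and 12.52 on day 4 and 12.56 and 12.45 on day 2 (0.09, interval -0.11 to 0.28). Cdh2, the gene of N-cadherin, had 10.56 and 10.62 against 9.84 and 9.63, a difference of 0.85 ± 0.16 whose adjusted p of 0.0446 passed while the fold did not. The intermediate filament gene Vim differed by 0.16 (interval -0.39 to 0.72). The mesoderm genes Mesp1 (0.02), Mesp2 (-0.01), Hand1 (-0.10), Tbx3 (-0.17) and Tbx5 (0.22) were not called, and the sign of the first 4 differences changed with an array left out.

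Over all 41 lists, which hold 628 measured genes, 20 genes were higher and 7 lower on day 4, and 23 lists had no called member. Among all 18716 genes 69 (0.369%) were higher and 14 (0.0748%) lower. The lists were written with earlier results of these data known, so their counts are a description. Keratin and apical genes (26), basement membrane genes (24), cholesterol synthesis genes (21), G1 cyclins and inhibitors (20), S phase and mitosis genes (25) and p53 targets (14) had none called, and their medians lay between -0.09 and 0.11. Blood and endothelium (17), lateral and cardiac mesoderm (19), paraxial mesoderm (15) and neural ectoderm (14), other cell types a gate could hold, likewise had none called. Of 15 node, notochord and axial mesoderm genes, also a Foxa2+ cell type, 3 were higher (Hesx1, Lhx1 and Cfc1) and 1 lower (Foxa2), and the list mean lay at 8.16 to 8.18 on day 4 against 7.99 to 8.02 on day 2. The part of such cells was not tested. Trophoblast (10 genes) had 1 lower, Tfap2c, and primordial germ cells (11) had 1 higher, Prdm1, and the same lower gene. Within the blood, lateral mesoderm, paraxial mesoderm and neural lists the largest differences were Gata4 at 0.99, which endoderm shares, and Nes at -1.11 (adjusted p = 0.457). Of 20 genes of amino acid starvation and unfolded protein response none was called and 16 were positive, led by Chac1 (1.32, adjusted p = 0.538). With an array left out, between 10 and 20 of the list genes were called, 10 without day 4 replicate 2, 15 without day 2 replicate 2 and 17 without day 2 replicate 1.

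The same interval of days was measured in DE and in MP on other arrays. DE shared the medium of DEP, while MP grew with Bmp4 and less activin A. In DE, 230 genes were higher on day 4 (1.23%) and 120 lower (0.641%), and in MP 229 were higher (1.22%) and 96 lower (0.513%), against 69 and 14 in DEP. Of the 69 genes higher in DEP, 16 were also higher in DE and none lower, and 8 were higher and 3 lower in MP. Of the 14 lower genes, 4 were lower in DE and 5 in MP, and none was higher in either. The difference of the changes was then tested for each gene. The change of DEP was above that of DE in 102 genes (0.545%) and below it in 95 (0.508%), and above that of MP in 123 (0.657%) and below it in 170 (0.908%). Among the 69 risers, 23 had a change above that of DE and 39 above that of MP, 18 of them above both, and none below either. Since the risers were chosen by a high change in DEP, these counts carry the choice.

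Dkk1 changed by 2.62 in DEP, 0.31 in DE and 0.47 in MP, and its change in DEP exceeded the others by 2.30 (adjusted p = 0.00149) and 2.15 (adjusted p = 7.58e-04). DE had a mean of 12.97 on day 2, above the day 4 DEP arrays. Sfrp5 changed by 1.93 in DEP and 2.29 in DE, a difference of -0.36 that was not called (adjusted p = 0.768). Chst1 changed by 1.47 in DEP, -0.61 in DE and -0.35 in MP, and exceeded DE by 2.07 (adjusted p = 0.00158). The other genes with the highest difference from the change of DE were not called in DEP and were lower in DE on day 4: Ccnd1, the G1 cyclin D1, changed by -0.17 in DEP and -2.46 in DE, and Etv1, an Ets factor, by 0.10 and -2.19, while Phlda2, an imprinted growth gene, changed by -0.65 and -2.88. Pou5f1 changed by -0.13 in DEP and -2.30 in DE, a difference of 2.17 (adjusted p = 0.0132), and Nanog by -0.19 and -1.54, a difference of 1.35 (adjusted p = 0.00368).

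At the other end were genes that rose in DE and changed less in DEP. Apoa1, the main protein of high density lipoprotein, had 8.42 and 9.06 on day 4 and 7.76 and 7.94 on day 2 in DEP (0.89), while it changed by 4.04 in DE, a difference of -3.15 (adjusted p = 2.87e-04). Rfx6, a factor of the gut and pancreas endoderm, changed by 0.73 in DEP and 3.06 in DE, Eya4, a transcription co-activator, by 0.47 and 2.74, and Muc13, a transmembrane mucin, by 0.56 and 2.72. Nxf7, of the nuclear export factor family, changed by -0.95 in DEP, 1.95 in DE and 1.64 in MP. Against MP, the change of DEP was higher for Gpc4, a glypican, with 1.19 in DEP and -1.57 in MP, for Pga5 and Spink1, and for Shisa6 and the fatty acid transporter gene Slc27a2, with 0.87 and 0.13 in DEP against -2.42 and -2.94 in MP. It was lower for Cpm, a carboxypeptidase (-0.43 against 2.98), Hoxc8 (0.10 against 3.29), Pmp22, a myelin protein (-0.33 against 2.77), and Adgra2, an adhesion receptor of Wnt7 signalling (0.22 against 2.98). Without DE day 2 replicate 2, 373 genes instead of 197 differed from the change of DE, and 102 without DE day 4 replicate 1, 125 without DEP day 4 replicate 1, 121 without DEP day 4 replicate 2 and 130 without DEP day 2 replicate 2.

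**Figure D5:**
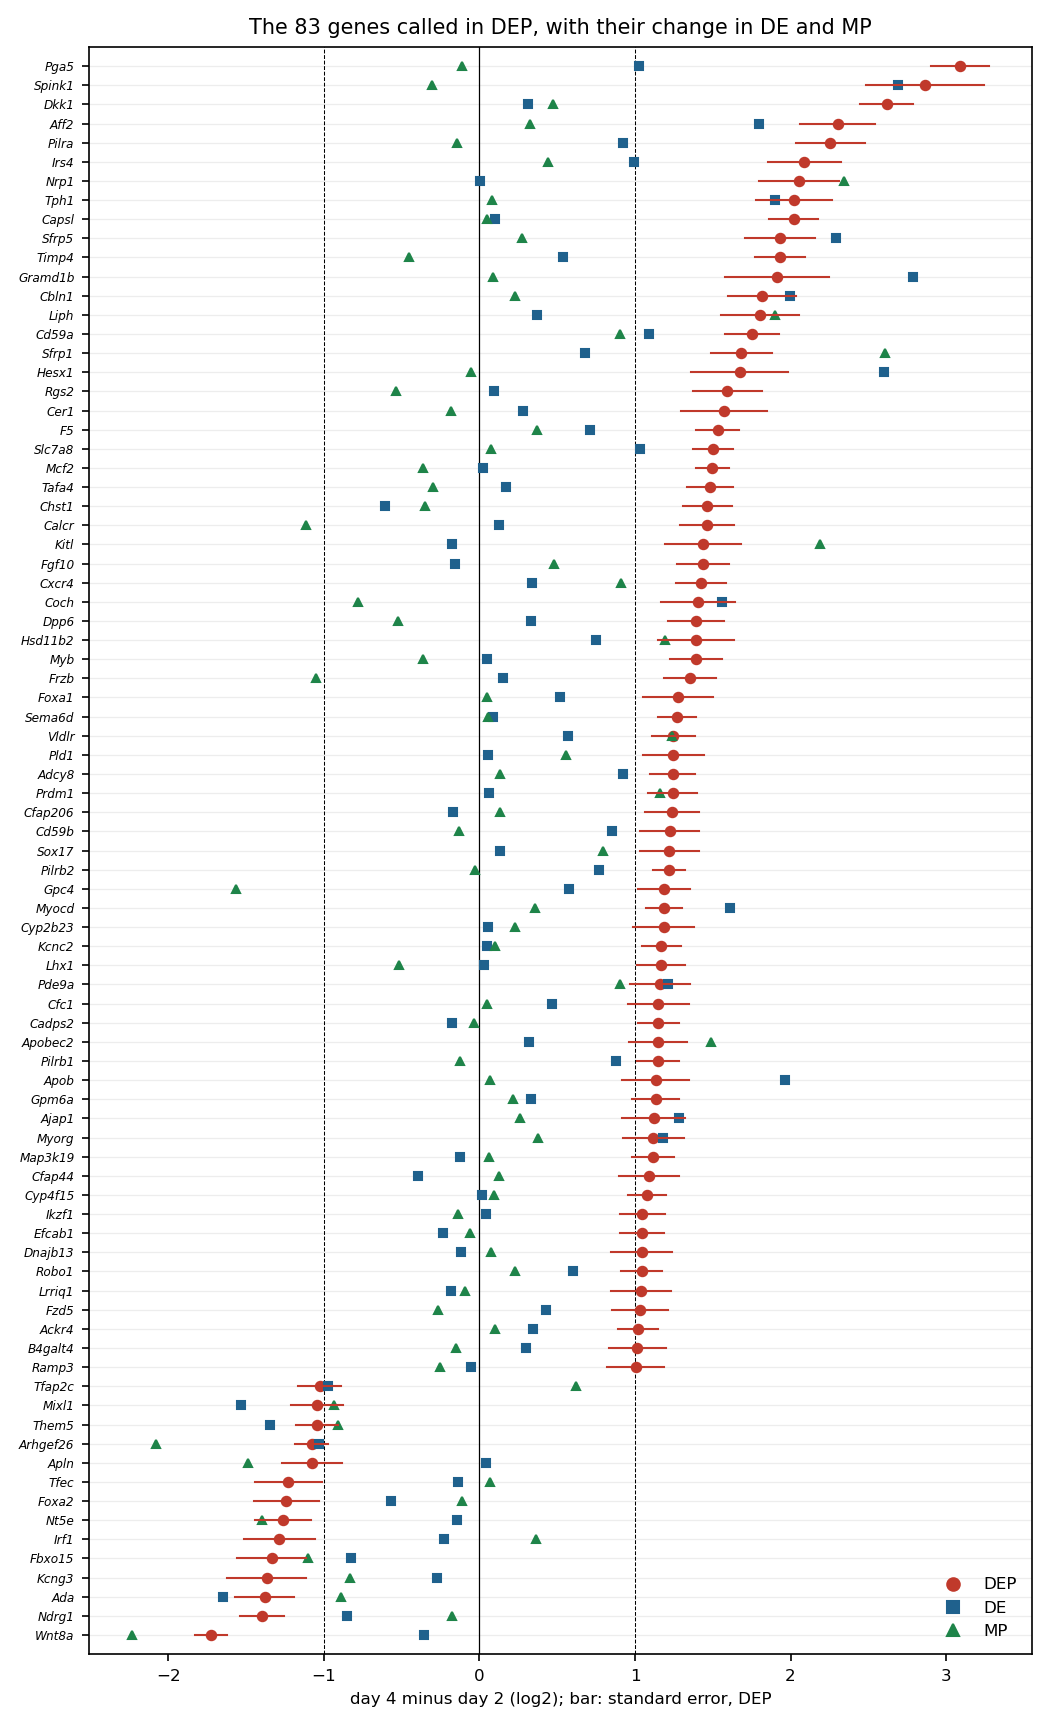
Log2 difference of day 4 minus day 2 (x axis) for each of the 83 genes called in DEP (y axis, ordered by their change in DEP), in DEP (circles, with the standard error as a bar), DE (squares) and MP (triangles); dashed lines mark a difference of 1 and -1. For Dkk1 the circle is at 2.62 and the square at 0.31, for Sfrp5 they are at 1.93 and 2.29, and for Wnt8a the triangle at -2.23 is below the circle at -1.73.

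The called genes were also read in DE on day 2 against ES, whose difference uses no DEP array, although these arrays share the fit and its spread with the calls. In that comparison 585 of all genes were higher (3.13%) and 966 lower (5.16%). As given above, the DE arrays of day 2 differed from each other in several genes, and the unsorted ES arrays were high in feeder genes. Of the 69 genes higher in DEP on day 4, 39 (56.5%) were higher in DE on day 2 than in ES, 8 were lower and 22 were not called. The 39 included Dkk1, Cer1, Sfrp1, Sfrp5, Sox17, Foxa1, Cxcr4, Lhx1 and Prdm1. Of the 14 lower genes, 5 were higher in DE on day 2 than in ES, among them Foxa2 and Mixl1, 2 were lower (Fbxo15 and Kcng3) and 7 were not called.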

How the data were processed

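Total RNA of sorted cells was amplified and hybridized to Affymetrix Mouse Gene ST 1.0 arrays. The authors deposited log2 values per probe set after RMA (oligo 1.48.0), which subtracts background, quantile-normalizes all 16 arrays together and summarizes probes, so that a shift of all genes is removed and low signals are compressed. Arrays give no read depth; their number limits the precision. From 35556 probe sets, the 32000 of highest mean were kept, of which 20427 have 1 symbol, 1400 several and 10173 none; symbols came from the platform annotation, and every sample column belonged to a labelled sample. A model of 8 group means was fitted with limma 3.58.1 in R 4.3.3 (8 residual degrees of freedom, empirical Bayes, Benjamini-Hochberg over all kept probe sets), and genes were read from the brightest probe set with 1 symbol. Errors are standard errors and intervals are 95%. Replicates are separate samples of 1 line, so p-values measure the spread between these samples. Named are the sort and study genes, the 20 highest and 20 lowest called genes, 5 at each end of the differences of change, up to 6 called and 4 uncalled members of a list, and genes said to be chosen after their values were seen. At the ends of the differences of change, genes whose DEP arrays overlapped between the days, such as Pou5f1, were passed over. The members, lists and tests were chosen with earlier results of these data known. The computations were tested on simulated data. Alternatives were other filters, arrays, scalings, thresholds, weights and a replicate block.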

Additional observations from a re-analysis of the deposited data

Results flagged for a closer look

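Differences between the changes of DEP and of another cell type, by the interaction test in limma, were found for 197 genes against DE and 293 against MP. The named ones against DE were Dkk1 (2.30), Ccnd1 (2.29), Etv1 (2.29), Phlda2 (2.22) and Chst1 (2.07) above, and Muc13 (-2.16), Eya4 (-2.26), Rfx6 (-2.33), Nxf7 (-2.90) and Apoa1 (-3.15) below, with adjusted p between 2.87e-04 and 0.0214. Against MP they were Shisa6 (3.29), Pga5 (3.20), Spink1 (3.17), Slc27a2 (3.07) and Gpc4 (2.76) above, and Nxf7 (-2.59), Adgra2 (-2.76), Pmp22 (-3.10), Hoxc8 (-3.19) and Cpm (-3.41) below, with adjusted p between 3.54e-05 and 0.00971. In the fit on all arrays, each of these genes changed by a different amount from day 2 to day 4 in the 2 groups compared. The number of such genes shifted with an array left out, as given below. MP grew with Bmp4 and less activin A, so against MP cell type and medium cannot be told apart. No group held 4 arrays, so single outlying arrays were not tested for.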

How the results depend on the processing

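The number of genes called in DEP was 83. It was 52 with 16000 probe sets (48 of the 83 kept, the other 35 not in that set), 26 with the 4 DEP arrays alone, 169 by adjusted p alone, 9 at a log2 difference above 2, 2 by treat against a log2 difference of 1, and 36 to 100 with 1 array left out (36 without day 4 replicate 2; 100 without either DE array of day 2, added after seeing the data). The replicate block gave 82, with 79 of the 83 kept, 28 list genes, and 206 and 293 for the differences of change. Replicate 1 minus 2 correlated at 0.02 between the DEP days, and at -0.20 to 0.25 over all pairs of groups. These values do not show whether replicates of equal number came from the same culture. The difference of change from DE ranged from 102 to 373 genes with an array left out, and that from MP from 221 to 272, with 189 for 16000 probe sets. List genes called were 27, 11 with the 4 DEP arrays alone and 10 to 20 with an array left out. Array weights (103), cyclic loess (79), centring on the 75th percentile (87), trend and robust estimation (83), all probe sets (83), median over probe sets (84) and leaving out ES (89, added after seeing the data) stayed within 1.5 times. No called gene changed sign in any of these fits. Uncalled genes near 0 changed sign with an array left out: Apc (-0.17 to 0.0018), Hand1 (-0.22 to 0.026), Lef1 (-0.0255 to 0.23), Mesp1 (-0.16 to 0.20), Mesp2 (-0.0673 to 0.0551, and 0.0089 when centred on the 75th percentile), Snai2 (-0.0064 to 0.45), Sox2 (-0.15 to 0.0511), Tbx3 (-0.34 to 0.002) and Twist1 (-0.18 to 0.19). With 2 arrays a group, signals near background and modest differences are least certain.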
